A study of Homo sapiens with 6 samples.

Results

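In human HEK293-derived cells depleted of the TET dioxygenases, 10 genes of endoplasmic reticulum (ER) associated degradation were examined: EDEM1, EDEM2, EDEM3, MAN1B1, OS9, SEL1L, SYVN1, HERPUD1, DERL1 and DERL2. The 10 genes were chosen by name for their place in this pathway, with the lower EDEM1 signal in the present contrast already known from the same arrays. For that reason their differences between the siRNA groups are given below as a description, and no p-value is attached to them. All probe sets whose annotation named 1 of the 10 symbols and no other gene were taken, which gave 21 of 54613 probe sets for 9 of the 10 genes. SYVN1 was not described, because the 1 probe set annotated to it also carried a microRNA gene. Of the 21 probe sets, 18 lay in the brighter 50% of all probe sets (mean log2 signal over the 6 arrays) and entered the tests, with at least 1 for each of the 9 genes.

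RNA of 6 cultures was read on 1 Affymetrix array each, with a single dye. The cells were Flp-In T-REx 293, a derivative of the embryonic kidney line HEK293 built to accept a transgene at a fixed genomic site. All cells carried a stable GFP transgene that was not switched on. In the TET siRNA group, 3 clones (1, 2 and 3) received siRNAs against TET1, TET2 and TET3 at once, and in the control group the same 3 clones received a non-targeting siRNA pool. RNA was collected 96 h later in both groups, so each clone supplied 1 array per group and was its own control.

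Proteins that fail to fold in the ER are sent back to the cytosol and destroyed by the proteasome. On glycoproteins the signal is a trimmed glycan: MAN1B1 and the EDEM proteins belong to the mannosidase family that removes mannose residues, and the lectin OS9 recognises the trimmed chain. OS9 hands the client to SEL1L, the adaptor of the membrane ubiquitin ligase SYVN1 (also called HRD1), which HERPUD1 helps to organise and around which the Derlins form part of the exit channel. Many of these genes are induced by the unfolded protein response, through the transcription factors XBP1 and ATF6. TET enzymes oxidise 5-methylcytosine, which in these cells lies mainly in CpG dinucleotides.

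Signals are deposited MAS5 intensities on a linear scale, scaled to a trimmed mean of 1000 on every array. The 3' to 5' signal ratio of GAPDH, a measure of RNA integrity, was 1.04 to 1.08 over the 6 arrays and that of ACTB 1.89 to 2.15. Against control, 17.9% of the TET1 signal, 46.8% of the TET2 signal and 42.9% of the TET3 signal was left at the brightest probe set of each. At the other TET1 probe set 22.1% was left. The other TET2 probe sets (14.2 and 117.2% of control) and TET3 probe sets (56.5 and 68.5%) lay below the brightness limit. All 8 markers fixed for HEK293 cells were bright enough to test. NEFL (17071 to 24539) and VIM (30595 to 38565) were the brightest, and NEFM (193.1 to 406.4) and PAX2 (204.0 to 340.1) the dimmest. Of 9 markers of blood, endothelial, liver and plasma cells, 6 lay below the brightness limit, among them JCHAIN and MZB1 of plasma cells (0.947 to 60.5). CD79A, HBB and PECAM1 lay above it at 147 to 435, a range that also held NEFM and PAX2. A lower array signal in such bulk RNA cannot be told apart from fewer cells that express the gene.

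EDEM1 had the lowest level relative to control among the tested member probe sets. It encodes an ER protein that speeds the removal of misfolded glycoproteins by mannose trimming. The signal of its only probe set (Entrez gene 9695) was 1099.7, 1178 and 1134 in clones 1, 2 and 3 under TET siRNA and 1757, 1806 and 1700.2 in the same clones under control siRNA. The highest TET siRNA array thus lay well below the lowest control array, and both groups were tight. The means were 1137 ± 39.1 and 1754 ± 52.8 (SD, n = 3 each), a difference of -0.63 on the log2 scale (SE 0.09). That is 64.8% of control with a 95% interval of 56.2 to 74.8%. The interval does not allow for EDEM1 having been chosen with its lower signal known, so it is no test. The per-clone log2 differences were -0.68, -0.62 and -0.58. The siRNA accounted for 98.5% of the variance of log2 signal over the 6 arrays and the clone for 1.09%.

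A call is a Benjamini-Hochberg adjusted p under 0.05 in limma over all 27306 tested probe sets, with the clone as a replicate block. EDEM1 was called lower and was the only one of the 18 member probe sets to be called. In the same fit 0.648% of all tested probe sets were called lower and 0.385% higher. In the fit without the block no member was called, against 0.0146% of all probe sets. The EDEM1 call was also lost with no brightness filter, with plain empirical Bayes moderation, without clone 1 and without clone 3, while the log2 difference stayed between -0.66 and -0.60 in the 6 alternatives that can move it.

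The 250 bases upstream of the EDEM1 start site (RefSeq, GRCh38.p14, chr3:5187457-5187706, plus strand) are shown because TET enzymes act on methylated CpG and EDEM1 was the member called. Capitals mark the CpG dinucleotides, of which the stretch holds 28.

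EDEM1: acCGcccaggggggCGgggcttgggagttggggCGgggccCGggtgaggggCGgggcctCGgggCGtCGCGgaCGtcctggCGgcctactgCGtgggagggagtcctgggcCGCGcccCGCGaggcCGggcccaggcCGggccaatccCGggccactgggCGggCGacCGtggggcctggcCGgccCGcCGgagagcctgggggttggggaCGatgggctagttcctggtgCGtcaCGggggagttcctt

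Fewer CpGs were found in 84.1% of the 35116 RefSeq windows of this length, whose median was 11. A window was held for 9 of the 10 members, and all 9 lay above that median. The median is over 27305 genes and not only over genes bright enough to test on these arrays. EDEM2 and OS9 had 16, EDEM3 17, SEL1L 18, SYVN1 20, DERL2 21, HERPUD1 31 and MAN1B1 33. MAN1B1 and HERPUD1 thus had more upstream CpGs than EDEM1, and a link of CpG number to the siRNA differences was not tested. DNA methylation was not measured on these arrays.

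EDEM2 and EDEM3, the homologues of EDEM1, did not share its difference in size. EDEM2, which initiates mannose trimming, gave 464.7, 472.5 and 432.5 under TET siRNA and 491.7, 570.02 and 647.1 under control in clones 1, 2 and 3. All 3 TET siRNA arrays lay below the controls, with a narrow gap, and the controls were spread more widely than the TET siRNA arrays. The log2 differences in clones 1, 2 and 3 were -0.08, -0.27 and -0.58. The fitted difference was -0.31 (SE 0.15) and was not called.

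EDEM3, which continues the trimming and is also secreted, had 3 tested probe sets, all of types that can cross-hybridise. The brightest read 3932, 4522 and 4913 under TET siRNA and 4203, 4068 and 4186 under control, with clone 1 lower and clones 2 and 3 higher than their controls (log2 0.10, SE 0.08). The second read 2506, 1999.5 and 2131 against 1919.9, 1819 and 1584, higher in each clone and without overlap (0.32, SE 0.09). The third differed by 0.10 (SE 0.10), with 3 of 3 clones higher and overlapping groups. No EDEM3 probe set was called with all clones, and the second was called higher without clone 2 (0.41), where 1.27% of all tested probe sets were called higher. Within the EDEM family EDEM1 and EDEM2 therefore had negative and EDEM3 positive fitted differences, and these signs were the same under the quantile and median scalings tried.

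**Figure D1:**
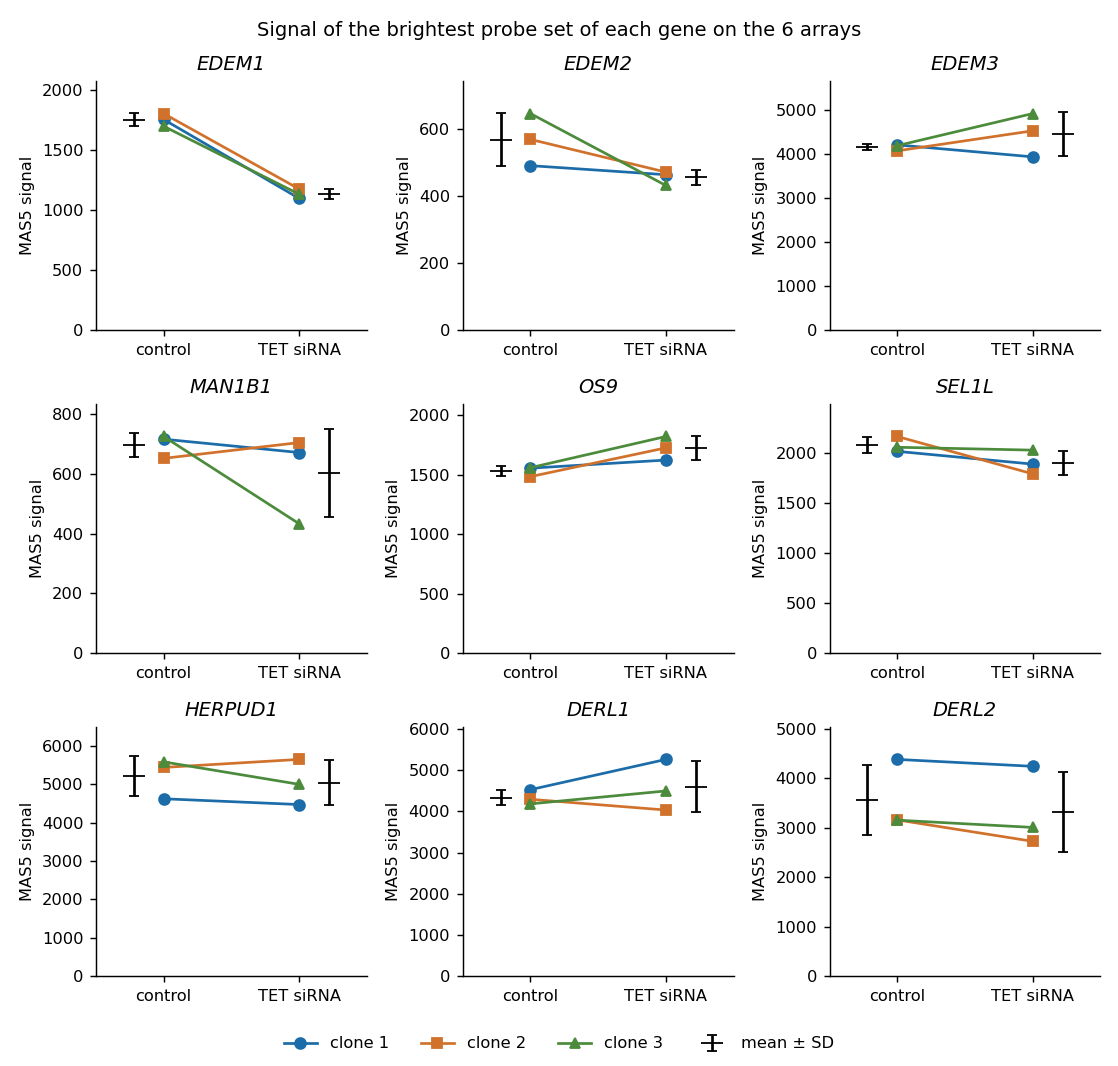
MAS5 signal (linear axis from 0) of the brightest probe set of each of the 9 genes under control and TET siRNA, with 1 line per clone and black marks for the mean ± SD of 3 arrays. For EDEM1 all 3 lines run down in parallel from 1754 to 1137 on average, and for DERL2 clone 1 lies above the other clones under both siRNAs.

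MAN1B1, the ER and Golgi mannosidase of the same enzyme family, had 2 tested probe sets. At the brighter, 1 array stood apart: the signal was 670.7, 703.9 and 432.9 under TET siRNA against 715.2, 651.2 and 724.2 under control, low only in clone 3 under TET siRNA. The fitted log2 difference of -0.24 (SE 0.17) became 0.01 without clone 3. The dimmer probe set differed by -0.04 (SE 0.14), with clone 3 lowest under both siRNAs, at 438.6 and 424.1. A drop of clone 3 under TET siRNA alone was not seen there.

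OS9, the lectin that reads the trimmed glycan, had 2 tested probe sets, both of types that can cross-hybridise. The brighter gave 1622, 1724 and 1820 against 1554, 1483 and 1558. The 3 TET siRNA arrays lay above the controls by a small margin (log2 0.17, SE 0.09). At the dimmer probe set the groups overlapped, with 736.9, 777.9 and 805.3 against 937.6, 664.5 and 741.2. Its fitted difference was close to 0 (SE 0.14), and clone 1 differed in sign from clones 2 and 3.

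SEL1L, which holds the ligase complex together, had 3 tested probe sets that differed in sign. The brightest read 1887, 1790 and 2026 against 2014, 2162 and 2055 (log2 -0.13, SE 0.09). All 3 clones were lower at this probe set, by 0.02 to 0.27, and the groups overlapped. The second differed by 0.14 (SE 0.13), most of it from clone 2, whose control array was low at 542.5. The third differed by -0.26 (SE 0.25) and was high on the control array of clone 1 (338.6, against 155.9 to 208.4 on the others).

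HERPUD1, a ubiquitin-like membrane protein that is among the strongly induced genes of ER stress, gave 4472, 5647 and 4998 under TET siRNA and 4622, 5439 and 5583 under control. The groups overlapped throughout, and the fitted difference was -0.05 (SE 0.07), with a 95% interval of 86.5 to 107.7% of control. Without clone 3 the difference was 0.0033. For HERPUD1 the stretch around its ER stress element is shown, since it was the only member window with such an element (RefSeq, GRCh38.p14, chr16:56931995-56932065, plus strand). Capitals mark the element, which ends 106 bases before the start site.

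HERPUD1: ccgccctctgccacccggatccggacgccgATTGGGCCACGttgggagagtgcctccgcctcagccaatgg

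The element is ERSE-II, searched as ATTGGNCCACG on both strands of windows of 300 bases around start sites, and 0.0541% of the 35116 windows hold it. The same HERPUD1 window held the amino acid response core TGATGNAA on the minus strand (3.62% of windows), with no overlap of ERSE-II. No member window held ERSE, searched as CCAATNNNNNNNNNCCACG (0.0769% of windows), or the XBP1 site core TGACGTGG (0.729%). These letters say nothing about binding.

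DERL1, a channel component, had 3 tested probe sets with differences of 0.08, -0.05 and 0.01 (SE 0.08 to 0.09). At the brightest the signal was 5259, 4031 and 4493 against 4525, 4291 and 4181, and the groups overlapped at all 3. DERL2, its close relative, gave different pictures at its probe sets. The brighter read 4243, 2727 and 3008 against 4382, 3159 and 3155, lower in each clone by 0.05 to 0.21 with overlapping groups (-0.11, SE 0.08). The dimmer read 736.9, 830.3 and 713.2 against 635.6, 572.6 and 672.5, higher in each clone without overlap (0.28, SE 0.13), and 0.15 without clone 2.

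**Figure D2:**
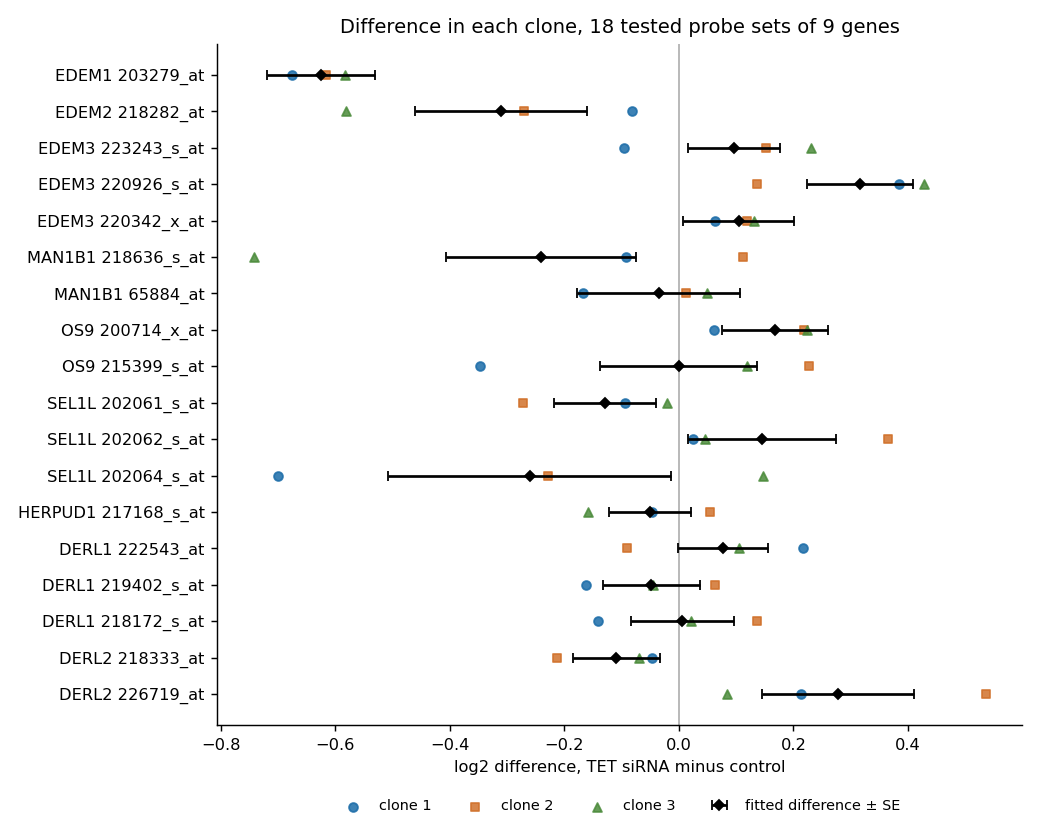
Log2 difference of TET siRNA minus control in each clone (coloured symbols) with the fitted difference and its SE (black), for the 18 tested probe sets of the 9 genes. EDEM1 is the only one whose clones all lie beyond -0.5, while the probe sets of SEL1L, OS9 and DERL2 lie on both sides of 0 or at it.

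Over the 18 tested probe sets 10 differences were negative and 8 positive, with a median of -0.02 on the log2 scale. Without EDEM1 the median of the other 17 was close to 0. Over all 27306 tested probe sets 12457 were negative and 14849 positive, with a median of 0.02. All 3 TET siRNA arrays lay below all 3 control arrays at 2 member probe sets (EDEM1 and EDEM2), and such a separation was seen at 5.5% of all probe sets. They lay above at 3 (1 each of EDEM3, OS9 and DERL2), against 7.21% of all. The 3 member probe sets below the brightness limit were erratic. The dimmest SEL1L probe set read 74.6 to 158.96, the dimmer HERPUD1 probe set 7.58 to 66.4, and the dimmest DERL1 probe set 15.7 to 202.05, each with clones of both signs.

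How the members varied between clones was a measure that played no part in choosing them, and was tested with limma's moderated F-test over the 3 clones in the same fit. The brighter DERL2 probe set was called (limma adjusted p = 0.0069). In clone 1 it read 4243 and 4382 under the 2 siRNAs, and in clones 2 and 3 it read 2727 to 3159, so that clone 1 did not overlap the others. Clone 1 exceeded clone 2 by 0.55 and clone 3 by 0.49 on the log2 scale, and clone 2 differed from clone 3 by -0.07. At this probe set the clone accounted for 93.4% of the variance and the siRNA for 4.58%. The dimmer DERL2 probe set did not show it: clones 1, 2 and 3 had means within 0.02 of each other (limma adjusted p = 0.997).

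No other member probe set was called between clones, so that 1 of 18 was called, against 8.27% of all tested probe sets. HERPUD1 came next, with clone 1 lower by 0.29 and 0.22 than clones 2 and 3 (limma adjusted p = 0.122). The 3 DERL1 probe sets were each higher in clone 1, by 0.096 to 0.23 (limma adjusted p 0.282 to 0.740). EDEM1 differed by 0.07 at most between clones (limma adjusted p = 0.897). The DERL2 call rested on both arrays of clone 1: the adjusted p was 0.147 without its TET siRNA array and 0.0874 without its control array, while leaving out any other array kept the call. It was also lost with plain empirical Bayes moderation (0.191) and kept under the other 6 alternatives. Among those 6 was an adjusted p under 0.1, which cannot lose a call made at 0.05.

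**Figure D3:**
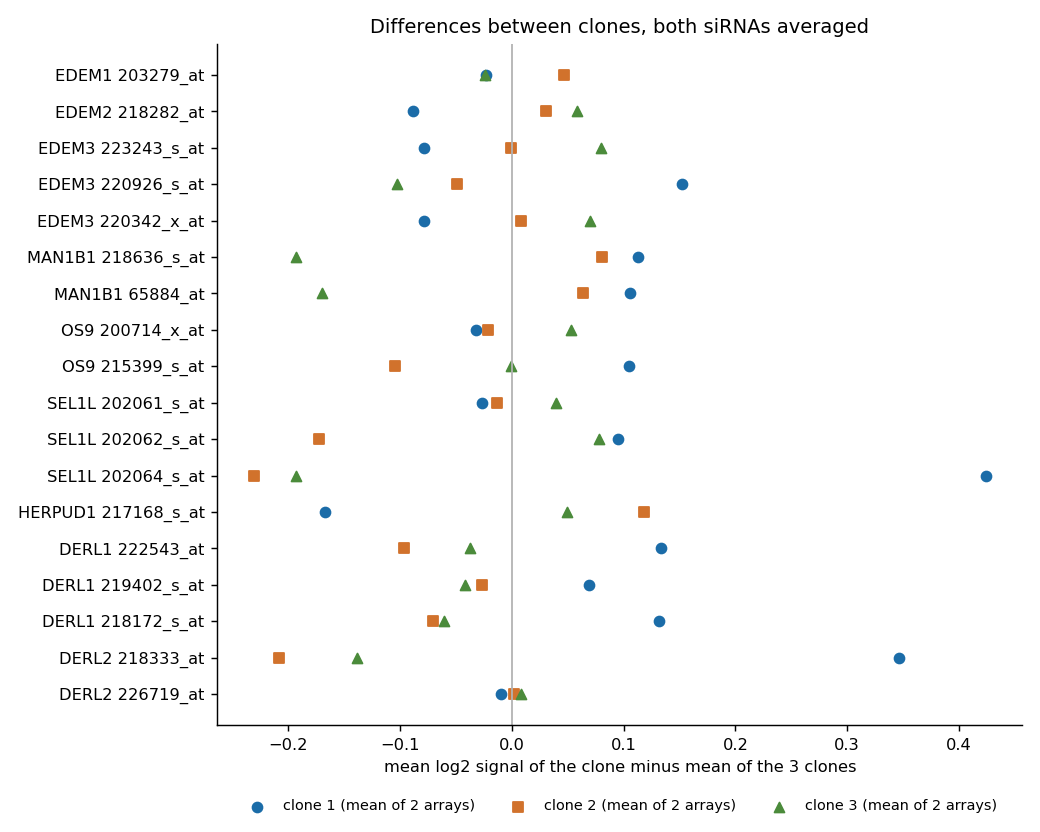
Mean log2 signal of each clone over its 2 arrays, relative to the mean of the 3 clones, for the 18 tested probe sets. Clone 1 lies apart to the right at the brighter DERL2 probe set, as it does, uncalled, at the third SEL1L probe set, while the clones coincide at the dimmer DERL2 probe set.

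Other genes of the pathway were read from lists drawn up by function, with earlier results of these data known. The p-values printed for list genes are therefore descriptions and no independent test. Each gene was read by its brightest tested probe set. Over all 12318 genes so tested, 0.836% were called lower and 0.479% higher, with a median difference of 0.01, and 16.1% had an unadjusted p under 0.05. Of 42 further degradation factors (other ligases, ubiquitin-conjugating enzymes, the VCP segregase and its partners), 39 were tested. None was called in limma in either direction, 7 (17.9%) had an unadjusted p under 0.05, and none was called without the block. Their median was -0.0030, with 20 negative and 19 positive. SELENOS, a selenoprotein that links VCP to the Derlins, had the smallest p, at 11050.0 ± 268 against 13513 ± 598 (SD, n = 3 each). Its difference was -0.29 (SE 0.07, limma adjusted p = 0.0650), with 3 of 3 clones lower and no overlap of the groups. Among the brightest 30% of probe sets alone its limma adjusted p was 0.0433. Under the other alternatives tried it stayed above 0.05, from 0.0517 without clone 2 to 0.444 without the block. It was 0.189 with no brightness filter. UBE2G2, a ubiquitin-conjugating enzyme of the pathway, differed by -0.21 (SE 0.07, adjusted p = 0.172) at its brightest probe set, where the groups did not overlap, and by -0.29 to -0.03 at the others, each with clones of both signs.

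The glycoprotein folding cycle, in which calnexin and calreticulin retain clients before they reach the mannosidases, had a median of -0.01 over 17 tested genes. None was called in limma and 1 (5.88%) had an unadjusted p under 0.05. LMAN1, a cargo lectin of ER exit, differed by -0.16 (SE 0.07, adjusted p = 0.317) at its brightest probe set. The other tested LMAN1 probe sets differed by -0.07 and -0.38, each with clones of both signs. PRKCSH, the beta subunit of glucosidase II, differed by -0.31 (SE 0.14, adjusted p = 0.349) and was higher in clone 1.

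Of 32 sensors and targets of the unfolded protein response, 1 was called lower and none higher, with a median of -0.01 and 17 negative against 15 positive, and 6 (18.8%) had an unadjusted p under 0.05. The called gene was ERO1B, an oxidase that drives disulfide formation. Its signal was 3912 ± 486 against 5283 ± 806 (SD, n = 3 each; log2 -0.43, SE 0.07, limma adjusted p = 0.0158), lower in 3 of 3 clones with no overlap of the groups. It was also called between clones (limma adjusted p = 0.0279). Its dimmer probe set differed by -0.22 (adjusted p = 0.605), with clone 3 higher.

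Of 17 tested genes of the PERK branch, the arm that acts through ATF4, 1 was called lower and none higher. The median was -0.09, with 12 negative and 5 positive, and 5 (29.4%) had an unadjusted p under 0.05. The called gene was TRIB3, a pseudokinase and ATF4 target, at 1717 ± 196 against 2621 ± 458 (SD, n = 3 each; log2 -0.60, SE 0.09, limma adjusted p = 0.0098), lower in 3 of 3 clones with no overlap of the groups. Its dimmer probe set gave 0.52 (SE 0.43), through clone 2 at 1.97. Without the replicate block neither ERO1B (adjusted p = 0.628) nor TRIB3 (0.454) was called, and neither was called with no brightness filter (0.0807 and 0.0574), with plain empirical Bayes, without clone 3 (0.224 and 0.148) or as the mean of all tested probe sets of the gene (0.119 and 0.955). ERO1B was also not called without clone 1 (0.0672).

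**Figure D4:**
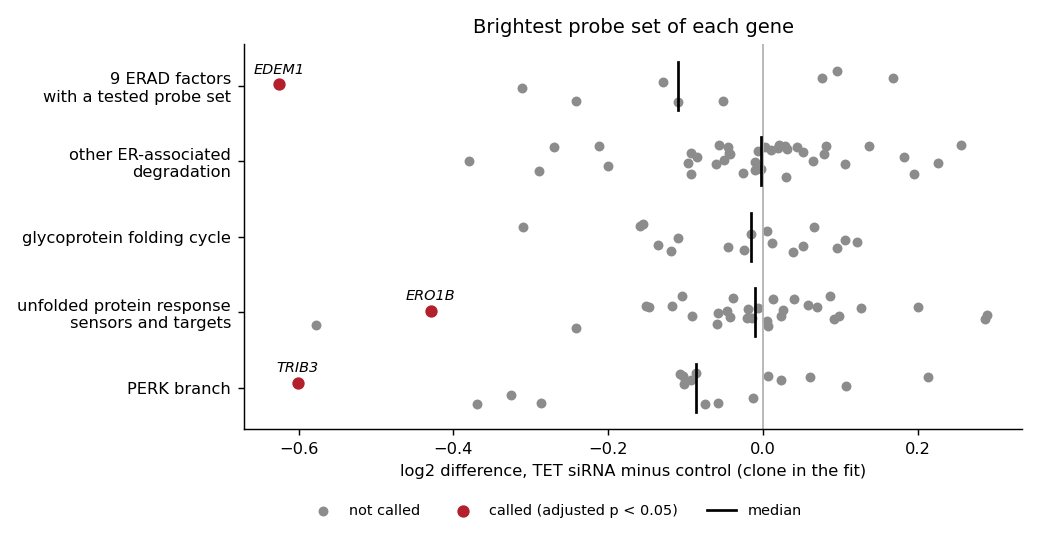
Log2 difference of TET siRNA minus control for the brightest tested probe set of each gene, in the 9 factors described and in 4 lists of other pathway genes, with red points for called genes and a black bar for the median. EDEM1, ERO1B and TRIB3 are the called genes, and the medians of these 5 groups of genes lie between -0.11 and -0.0030.

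The 5 genes whose signal followed EDEM1 most closely over the 6 arrays, among 12306 genes outside the members and the TETs, were EFCAB14, SRPK2, FOXJ3, ORC4 and ZDHHC2. Pearson's r was 0.999 for EFCAB14, a gene of little known function, 0.996 for the splicing-factor kinase SRPK2 and for the transcription factor FOXJ3, 0.995 for the replication origin subunit ORC4 and 0.991 for the palmitoyltransferase ZDHHC2. These are descriptions over 6 arrays that share the 2 groups, in which any gene with a steady difference between the siRNAs scores highly. Their log2 differences were -0.64, -0.37, -0.21, -0.56 and -0.47 in the same order.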

How the data were processed

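The authors deposited MAS5 signal intensities per probe set on a linear scale, 1 column per array. The submitters' processing notes name MAS5 without a version. These arrays were already scaled, so no normalization was added. After 62 control probe sets were removed, 54613 remained, 41091 of them with 1 annotated gene. Log2 signals of the upper 50% by mean (27306 probe sets, geometric mean of at least 117) were fitted in limma 3.58.1 (R 4.3.3) with siRNA and clone as terms and trended, robust empirical Bayes, two-sided. Probe sets below the limit were read from a fit of all. Types that can cross-hybridise are those with names ending in _s_at or _x_at. Among tested members, the probe sets of EDEM1, EDEM2 and DERL2, the dimmer of MAN1B1 and the brightest of DERL1 are of neither type. The fit was run on simulated data with independent normal noise of its own fitted SD. That checks the code and cannot show whether this noise model suits the arrays.

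Clone numbers in the labels pair the arrays, and same-clone deviations from the group means correlated at 0.493, 0.234 and 0.236 (limit 0.1; up to 0.219 between different clones). Named genes are all members, the TET genes, up to 4 called genes per list or else the 2 of smallest p, and the 5 genes most like EDEM1. The members and lists were chosen with earlier results of these data known. Promoter windows are from RefSeq; that of DERL1 was not used here. Figures were drawn with matplotlib 3.10.9. The number of arrays limits the precision.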

Additional observations from a re-analysis of the deposited data

How the results depend on the processing

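The log2 difference of EDEM1 stayed between -0.66 and -0.60 under the 6 alternatives that can move it (5 others leave it as it is). Its call was kept under 6 of 11, among them an adjusted p under 0.1, which cannot lose a call made at 0.05. Of 216 values of member probe sets under alternatives that can move them, 215 lay within 1 SD between replicates of the reported value. The exception was the dimmer DERL2 probe set without clone 2 (0.15). Leaving out 1 array without the block, as for part of the 216, cannot move a difference by 1 SD. That SD also holds the spread between clones, so the count does not measure stability. Without the replicate block 4 probe sets were called between the siRNAs in place of 282, with 0 of the members and 0 of the pathway genes, and the differences of TET2 (-1.10) and TET3 (-1.22) were no longer called, with p adjusted over all probe sets, dim ones included. With no brightness filter 70 were called, with 0 members and 0 pathway genes, and 847 between clones in place of 2259. With plain empirical Bayes 0 were called in place of 282, members and pathway genes included, and between clones 1 was called, with 0 members. In the fit reported, 3925 probe sets had an unadjusted p under 0.05, a count not comparable with these calls. At an adjusted p under 0.1, 646 were called between siRNAs and 3765 between clones. With the mean of all tested probe sets of a gene, 0 pathway genes were called. Leaving out 1 clone gave 63 to 684 calls, 0 to 2 members, 0 to 2 pathway genes, -1.20 to -0.98 for TET2 and -1.30 to -1.07 for TET3. On the same adjustment TET2 was not called without clone 1 (0.0539), clone 2 (0.0501) or clone 3 (0.261), and TET3 not without clone 3 (0.146). Leaving out 1 array without the block gave 2 to 4 calls, by a fit that pools the spread of both groups. Leaving out 1 array in the test between clones, chosen after seeing the data, gave 425 to 4600 calls, with 0 to 3 members. The causes were not tested. With 3 clones, differences of the size seen at most members lie within the spread between arrays, and the signal of the dim probe sets was too variable to read a direction.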
